A study of Mus musculus with 6 samples.

Results

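The transcripts examined here are 10 genes that mark macrophages, measured in cultures of pancreatic acini, the clusters of enzyme-secreting cells of the exocrine pancreas. The members, chosen by gene name, are Cd68, Adgre1, Csf1r, Lyz2, C1qa, C1qb, C1qc, Mrc1, Tyrobp and Fcer1g, 10 of 56953 genes in the count table. RNA was sequenced from 6 cultures at day 3 of an ex vivo assay of acinar-to-ductal metaplasia (ADM), in which explanted acini embedded in Matrigel, in Waymouth's medium with serum, trypsin inhibitor and dexamethasone, turn duct-like. WT denotes 2 libraries from wild-type mice, labelled as aged 10 and 11 weeks. DD denotes 2 libraries from mice homozygous for a ubiquitous Dkk3 knockout allele, labelled 12 and 13 weeks. DD + rDKK3 denotes 2 libraries from acini of the same knockout to which recombinant DKK3 protein was added, labelled 14 and 15 weeks. Age and group cannot be told apart by these labels. The knockout allele is carried by every cell of the mouse, macrophages included. WT 2 is labelled female and the other 5 libraries male, yet 4 Y-linked genes summed to 141.4 CPM in WT 2, within the range of 118.7 to 146.7 CPM over all libraries. Xist, the transcript of the inactive X chromosome, had 16 counts in WT 2 and 0 in the other 5 libraries. Values of a group are given for replicate 1 and then replicate 2. The different ages given to the 2 libraries of a group imply separate animals, although no animal is named. The tests of single genes set the difference between groups against the spread between these libraries, estimated in part over all genes.

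Macrophages are tissue-resident phagocytes that live in the stroma between acini and respond to dying cells and to tissue damage. Their survival and identity depend on signalling through the receptor encoded by Csf1r, and the ETS-family factor PU.1, encoded by Spi1, drives many of their genes. Of the members, C1qa, C1qb and C1qc encode the chains of C1q, the recognition molecule of the classical complement pathway. Tyrobp (DAP12) and Fcer1g (the common gamma chain of Fc receptors) encode adapters that carry ITAM signalling motifs for receptors lacking their own. Lyz2 is a lysozyme, Mrc1 is the mannose receptor CD206, Adgre1 is the F4/80 antigen and Cd68 is a lysosomal membrane glycoprotein. No step of the labelled protocol sorted cells, so a bulk library may hold RNA of the stromal cells that remain attached to isolated acini. In such bulk samples, fewer macrophages and less RNA per macrophage cannot be told apart.

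The 3 C1q genes lie side by side on the minus strand of chromosome 4 in GRCm39, with 3 exons each: C1qb at chr4:136607440-136613498, C1qc at chr4:136617115-136620376 and C1qa at chr4:136623228-136626114. The cluster spans 18675 bases, with 3616 bases between C1qb and C1qc and 2851 between C1qc and C1qa. The start regions of these genes are printed because their transcripts varied together, and that of Cd68 because its transcript did not vary with them. Each sequence covers 250 bases before and 50 bases after the canonical start in GENCODE M39, in the direction of transcription, and capitals mark AGGAAG or its complement CTTCCT, a core recognised by ETS-family factors. The windows are chr4:136626112-136626411 for C1qa, chr4:136613462-136613761 for C1qb, chr4:136620327-136620626 for C1qc and chr11:69557018-69557317 on the minus strand for Cd68.
C1qa: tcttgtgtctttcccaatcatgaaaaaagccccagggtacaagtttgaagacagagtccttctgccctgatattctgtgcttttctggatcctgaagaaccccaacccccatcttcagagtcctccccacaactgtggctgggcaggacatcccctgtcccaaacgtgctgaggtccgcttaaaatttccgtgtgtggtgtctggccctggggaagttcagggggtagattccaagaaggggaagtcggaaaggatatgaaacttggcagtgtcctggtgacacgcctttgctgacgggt
C1qb: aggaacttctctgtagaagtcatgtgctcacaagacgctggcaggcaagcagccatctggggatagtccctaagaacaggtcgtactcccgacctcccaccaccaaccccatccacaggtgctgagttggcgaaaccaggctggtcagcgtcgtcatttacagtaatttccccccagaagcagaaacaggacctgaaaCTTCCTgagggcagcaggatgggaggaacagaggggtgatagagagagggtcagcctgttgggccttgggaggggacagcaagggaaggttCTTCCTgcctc
C1qc: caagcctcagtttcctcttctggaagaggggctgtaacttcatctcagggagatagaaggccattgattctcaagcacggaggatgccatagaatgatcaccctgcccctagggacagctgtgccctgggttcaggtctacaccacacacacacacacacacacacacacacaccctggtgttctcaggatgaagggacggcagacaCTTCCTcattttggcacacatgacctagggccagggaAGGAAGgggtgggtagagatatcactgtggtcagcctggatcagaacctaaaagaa
Cd68: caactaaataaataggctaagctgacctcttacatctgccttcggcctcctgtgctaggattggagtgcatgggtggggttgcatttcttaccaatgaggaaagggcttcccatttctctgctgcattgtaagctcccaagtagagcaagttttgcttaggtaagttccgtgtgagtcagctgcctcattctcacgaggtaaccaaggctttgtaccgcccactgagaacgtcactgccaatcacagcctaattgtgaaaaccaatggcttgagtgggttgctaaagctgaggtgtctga

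The start windows of 9 members, all but Tyrobp, were searched. AGGAAG was present on either strand in the windows of 7 of these 9, absent from those of C1qa and Cd68, and present in 34.4% of 21757 coding-gene windows of the same length. The longer GAGGAAG, which contains AGGAAG and is the form usually given for PU.1, was found in 5 of them (Adgre1, Csf1r, C1qc, Mrc1 and Fcer1g) and in 13.2% of all windows. In the C1qc window it begins 43 bases before the start. The AP-1 letters TGANTCA were found in 1 member, Cd68, 78 bases before its start, and in 7.15% of all windows. Other searches found TTGCNNAA (C/EBP) in 1 member and 10.7% of windows, CACGTG in 0 members and 7.82%, and TATAAA in 1 member (Fcer1g) and 13.2%. The GC content of the members' windows had a median of 51.33%, against 58.33% over the 12674 windows of tested coding genes. For 7 of the 9 the start used lay within 118 bases of that in the deposited annotation, and for Fcer1g and Csf1r it lay 285 and 5220 bases from it.

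Library totals ran from 12018473 to 19750401 counts, and all 10 members passed the expression filter that left 14738 genes. Values are given as CPM, the usual scaled count (here on TMM-scaled library totals), and 3 counts, taken as the floor, corresponded to 0.142 to 0.295 CPM. By principal components of all genes, DD 2 and DD + rDKK3 2 lay apart from the other 4 libraries on the first component (41.48 and 42.04, against -37.34 to -7.783) and WT 1 from the other 5 on the second (52.77, against -29.92 to 12.18). The targeted gene, Dkk3, had 10 and 1 counts in the WT pair, 11 and 9 in the DD pair and 5 and 5 with rDKK3, so its message was near the floor in every group. The allele replaces a single exon and the locus has a further transcript with a start of its own, so counts summed over the whole gene do not check the loss of the secreted form.

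Together the members took 118.5 (95% binomial interval 112.4 to 124.8) and 59.8 (55.87 to 63.93) CPM on unscaled totals in WT 1 and WT 2. Their share was 77.77 (73.93 to 81.76) and 283.7 (275.5 to 292) in DD 1 and DD 2. In DD + rDKK3 1 and DD + rDKK3 2 it was 90.56 (86.3 to 94.98) and 219.3 (212.5 to 226.3). Each group thus held 1 library with a high and 1 with a low share, and the ranges of the 3 groups overlapped. As reads had no molecular identifiers, these intervals reflect counting error alone. Cd68 and Lyz2 gave a large part of these counts in every library, and the largest part in the low libraries. On scaled totals the summed level was 139.9 and 60.48 CPM in the WT pair, 72.69 and 270.7 in the DD pair and 89.42 and 209.8 with rDKK3. Without these 2 genes it was 70.34 and 10.68 CPM in the WT pair, 14.29 and 100.9 in the DD pair and 21.81 and 83.04 with rDKK3.

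**Figure D1:**
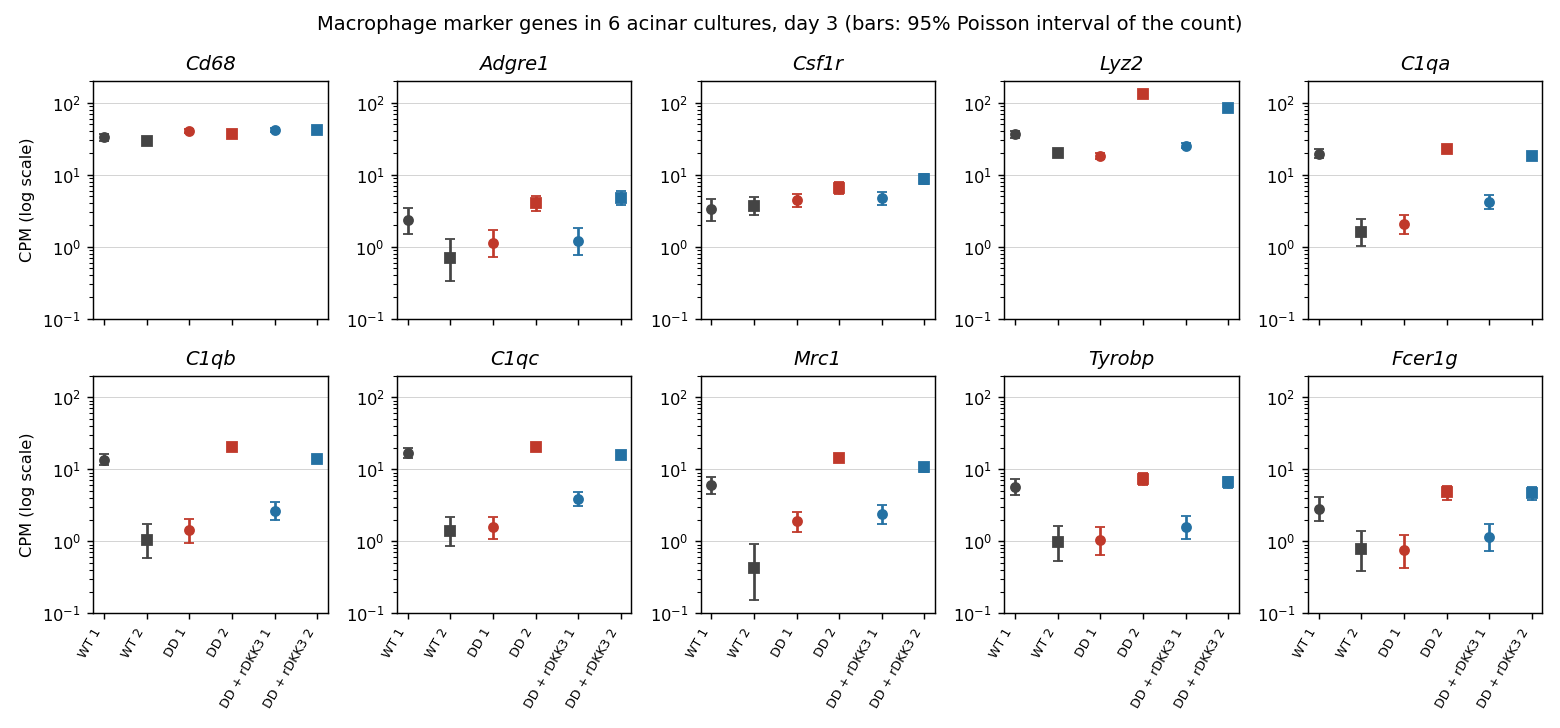
CPM (log axis) of the 10 macrophage marker genes in the 6 libraries, with WT in grey, DD in red and DD + rDKK3 in blue, circles for replicate 1 and squares for replicate 2, and bars for the 95% Poisson interval of the count. For 8 genes WT 1, DD 2 and DD + rDKK3 2 lie above the other 3 libraries, while Cd68 stays between 29.5 and 42.2 CPM and Csf1r between 3.34 and 8.66.

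The C1q genes differed several-fold between libraries. C1qa (ENSMUSG00000036887.6) stood at 19.6 and 1.62 CPM in the WT pair, 2.08 and 22.8 in the DD pair and 4.17 and 18.3 with rDKK3, from 199, 23, 44, 388, 79 and 341 counts. C1qb (ENSMUSG00000036905.9) stood at 13.7 and 1.05 CPM in the WT pair, 1.42 and 20.5 in the DD pair and 2.64 and 13.8 with rDKK3. C1qc (ENSMUSG00000036896.6) stood at 16.9 and 1.41 CPM in the WT pair, 1.56 and 20.6 in the DD pair and 3.91 and 15.6 with rDKK3. In all 3 genes WT 1, DD 2 and DD + rDKK3 2 were high, the other 3 libraries were low, and the groups overlapped. The ratio of the higher to the lower library for C1qa was 12.1 in WT (95% counting interval 7.84 to 19.5), 10.9 in DD (8.01 to 15.3) and 4.4 in DD + rDKK3 (3.43 to 5.69). For C1qb the same ratios were 13.0, 14.4 and 5.23, and for C1qc 12.0, 13.2 and 3.99. Within each group, then, replicate libraries differed by more than counting error allows. In DD + rDKK3 1, the low library of its group, C1qa was 2.00 times its level in DD 1 (1.37 to 2.97), and in DD + rDKK3 2 it was 0.804 times its level in DD 2 (0.693 to 0.932), which are comparisons of single libraries and not of conditions.

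The proportions among the 3 chains varied less than their levels. Per length of the canonical transcript (TPM), the level of C1qb was 0.272 to 0.386 of that of C1qa over the 6 libraries, and that of C1qc 0.440 to 0.550, so these proportions spanned 1.42-fold and 1.25-fold, while C1qa itself ran from 2.19 to 33.2 TPM. By the union of a gene's exons the first proportion was 0.163 to 0.232 and the second 0.422 to 0.527, so the order of the chains was kept while the size of the C1qb share depended on the length used. Of the 3 coding genes within 150000 bases of the cluster, Ephb2 and Zbtb40 did not follow it. Ephb2, a receptor tyrosine kinase, had library ratios (WT 1 to WT 2, DD 2 to DD 1, and DD + rDKK3 2 to DD + rDKK3 1) of 0.747, 1.17 and 1.46. Zbtb40, a zinc finger gene, had ratios of 0.539, 0.859 and 0.950, and Epha8 had 1 to 3 counts in each library.

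The adapters Tyrobp and Fcer1g followed the C1q genes. Tyrobp stood at 5.70 and 0.983 CPM in the WT pair, 1.04 and 7.35 in the DD pair and 1.58 and 6.62 with rDKK3. Fcer1g (chr1:171057141-171061934, minus strand) stood at 2.85 and 0.773 CPM in the WT pair, 0.757 and 4.76 in the DD pair and 1.16 and 4.63 with rDKK3. Both were high in WT 1, DD 2 and DD + rDKK3 2, with no overlap between these and the other 3 libraries and full overlap between the groups. The library ratios were 5.79 (3.19 to 11.3), 7.06 (4.46 to 11.7) and 4.17 (2.78 to 6.45) for Tyrobp. For Fcer1g they were 3.69 (1.79 to 8.18), 6.29 (3.65 to 11.5) and 3.98 (2.47 to 6.68). Per length, Fcer1g was at 0.316 to 0.497 of the level of Tyrobp in every library.

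Mrc1 (chr2:14234203-14336868, plus strand) stood at 5.99 and 0.421 CPM in the WT pair, 1.89 and 14.4 in the DD pair and 2.38 and 10.6 with rDKK3. Its lowest value, in WT 2, rested on 6 counts, and the ratio of WT 1 to WT 2 was 14.2 (6.17 to 40.3). The F4/80 gene Adgre1 (chr17:57665691-57790527, plus strand) stood at 2.36 and 0.702 CPM in the WT pair, 1.14 and 4.0 in the DD pair and 1.21 and 4.79 with rDKK3. Its library ratios of 3.36, 3.52 and 3.94 were alike in the 3 groups, and each interval reached below 3. Lyz2 (chr10:117113236-117118226, minus strand) stood at 36.2 and 20.3 CPM in the WT pair, 18.1 and 133 in the DD pair and 25.4 and 85.4 with rDKK3. DD 2 and DD + rDKK3 2 were its 2 highest libraries, and WT 1, though above WT 2 by 1.79-fold (1.53 to 2.09), stood well below them. Its paralogue Lyz1, 95.98% identical over 1268 aligned bases of the transcripts, had 0 to 6 counts in each library, so that reads shared by the copies leave a small uncertainty in Lyz2.

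Cd68 and Csf1r behaved otherwise. Cd68 (chr11:69555039-69556979, minus strand) stood at 33.3 and 29.5 CPM in the WT pair, 40.3 and 36.8 in the DD pair and 42.2 and 41.4 with rDKK3. Its library ratios of 1.13 (0.976 to 1.31), 0.913 (0.822 to 1.01) and 0.980 (0.887 to 1.08) all had intervals that reached 1. Csf1r (chr18:61233670-61265221, plus strand) stood at 3.34 and 3.72 CPM in the WT pair, 4.4 and 6.53 in the DD pair and 4.75 and 8.66 with rDKK3. The ratio for Csf1r was 0.897 in WT (0.566 to 1.41), 1.48 in DD (1.11 to 1.97) and 1.82 in DD + rDKK3 (1.40 to 2.38). For both genes the WT libraries were the 2 lowest of the 6. Per length, Cd68 ranged from 1.46 to 17.6 times the level of C1qa and Csf1r from 0.0307 to 0.414 times, spans of 12.0-fold and 13.5-fold, whereas Cd68 was 24.1 to 50.3 times the level of Csf1r. Csf1r overlaps Hmgxb3 on the opposite strand (119 to 575 counts), and the counting used strand.

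**Figure D2:**
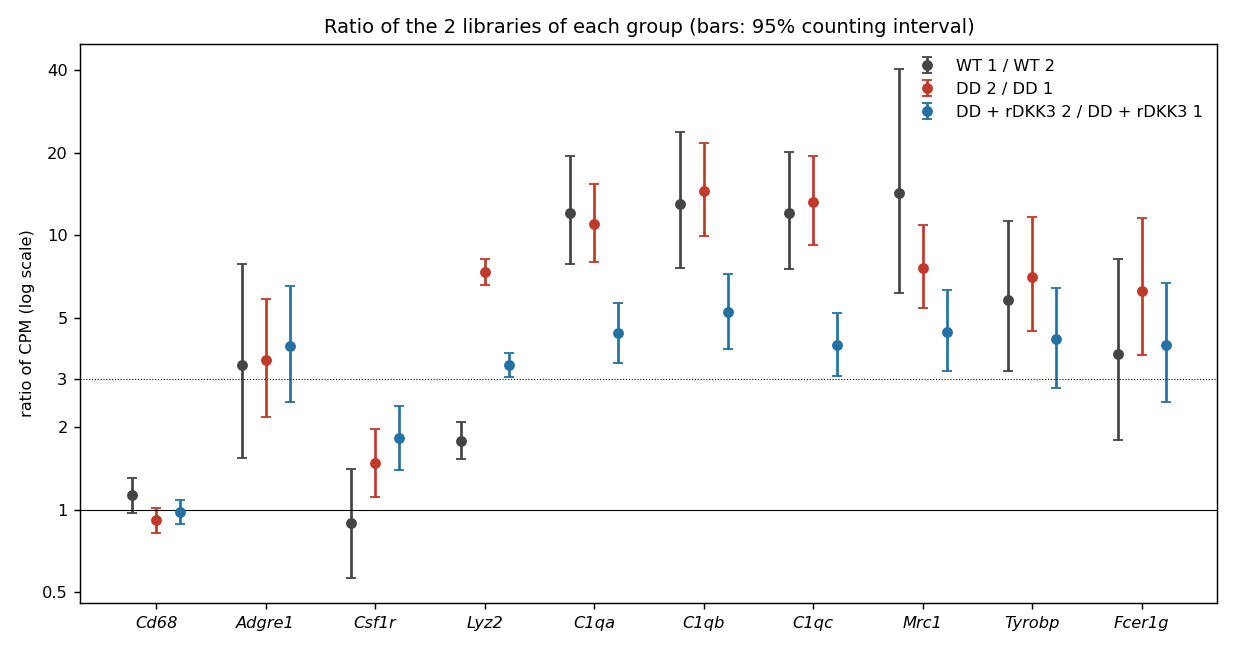
Ratio of CPM (log axis) between the 2 libraries of each group for the 10 marker genes, with bars for the 95% counting interval, a solid line at 1 and a dotted line at 3. In 7 genes all 3 ratios are at or above 3, Lyz2 reaches 1.79 in WT, and Cd68 and Csf1r lie between 0.897 and 1.82.

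Read per length, the order of the mean levels was Cd68 (47.7 TPM), Lyz2 (27.3), C1qa (15.5), Tyrobp (9.51), C1qc (7.94), C1qb (5.19), Fcer1g (3.92), Mrc1 (1.65), Csf1r (1.34) and Adgre1 (1.08). Because each gene but Cd68 varied several-fold among libraries, the means of neighbours in this order are not separated by more than the spread over libraries. Within a library some neighbours kept their order, as C1qb did at 0.494 to 0.729 of the level of C1qc. In WT 2, DD 1 and DD + rDKK3 1 the order began with Cd68 (36.2, 58.6 and 54.9 TPM) and Lyz2 (9.97, 10.5 and 13.2), while in DD 2 Lyz2 came first, at 70.2 TPM against 48.6 for Cd68. Levels of a pair of genes in a library are set by transcript length as annotated, and the lengths were taken from a later annotation than the one counted.

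How common so large a difference between replicates was among all genes was counted with a ratio of 3. This value, and the library of each group set above the other, were chosen after the members' values were seen. The numbers of members given here are therefore in part fixed by that choice. Of the 14738 genes tested, 2.12% were at least 3-fold higher in WT 1 than in WT 2, and 7 of the 10 members were. The same held for 4.44% of genes and 8 members in DD 2 over DD 1, and for 2.94% of genes and 8 members in DD + rDKK3 2 over DD + rDKK3 1. All 3 ratios reached 3 in 141 genes, or 0.957%, among them 7 members: Adgre1, C1qa, C1qb, C1qc, Mrc1, Tyrobp and Fcer1g. Of the other 134, 20 belonged to the other macrophage and leukocyte lists described below, where 120 genes were tested. Another 7 belonged to the list for fibroblasts and stellate cells, where 14 were tested, so a larger part of that list had the pattern. In no list were 106 of the 141 genes.

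The loss of DKK3 was examined by comparing DD with WT. All 10 members had higher mean levels in DD, by a median log2 fold change of 0.61 against 0.0164 over all genes, but none passed the quasi-likelihood test of edgeR (p adjusted by Benjamini-Hochberg over 14738 genes), where 0.0407% of genes (6) were called. At an unadjusted p under 0.05, 0 members and 629 genes were higher. The smallest adjusted p among the members was that of Cd68, with a log2 fold change of 0.30 (SE 0.144, adjusted p 0.586). Csf1r followed with 0.62 (SE 0.358, adjusted p 0.594), and Lyz2 had the largest difference, 1.42 (SE 0.876, adjusted p 0.601). The C1q genes differed by 0.25 to 0.60 with standard errors of 1.25 to 1.33, so the 95% interval for C1qa ran from -2.66 to 3.17. For Mrc1, Adgre1, Fcer1g and Tyrobp the log2 fold changes were 1.39, 0.77, 0.63 and 0.35, with SE from 0.872 to 1.23. With no filter on low counts Lyz2 and Mrc1 passed (adjusted p 1.35e-11 and 0.000738 by edgeR), but that fit pooled the spread over all genes and left out each gene's own, and the DD and WT libraries of both genes overlapped. Both DD libraries lay above both WT libraries for 2 members, Cd68 and Csf1r, as for 18.1% of all genes. The direction of the other 8 members rested on DD 2: without it all 8 were lower in DD than in WT (C1qa by -2.31 and C1qc by -2.51 on the log2 scale), while Cd68 and Csf1r stayed higher. Without WT 2, 5 members were higher and 5 lower.

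The effect of the recombinant protein was examined by comparing DD + rDKK3 with DD, with no pairing of libraries. None of the members passed the test, 0 of 14738 genes (0%) were called, and every member had an adjusted p of 0.9999. At an unadjusted p under 0.05, 0 members and 292 genes differed (88 higher and 204 lower), and DESeq2 called 2 genes, neither of them a member. Higher means were found for 4 members and lower means for 6, with a median log2 fold change of -0.077 against -0.0028 over all genes. Lyz2 was at -0.44 (SE 0.847, 95% interval -2.41 to 1.52), C1qa at -0.13 (-2.98 to 2.72) and Mrc1 at -0.32 (-2.97 to 2.33). Cd68 differed by 0.12 (-0.22 to 0.45) and Csf1r by 0.30 (-0.50 to 1.09), the 2 narrowest intervals of the 10. Only for Cd68 did the libraries of the groups not overlap, as for 29.5% of all genes in either direction. Without DD 2 all 10 members were higher in DD + rDKK3, by a median of 1.85, and without DD + rDKK3 2, 9 were lower.

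**Figure D3:**
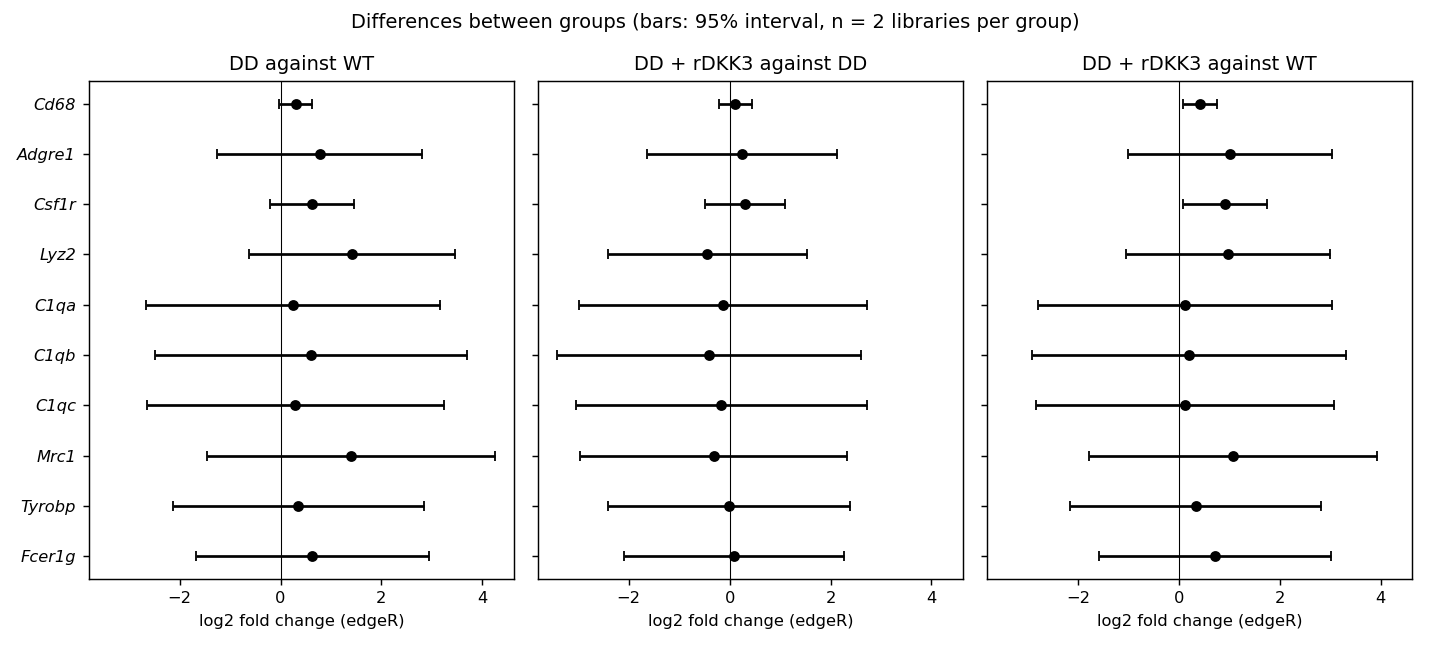
Log2 fold change (horizontal axis) of each marker gene in the 3 comparisons by edgeR, with bars for the 95% interval from 2 libraries per group and a line at 0. In the comparison of DD + rDKK3 with WT the intervals of Cd68 (0.078 to 0.75) and Csf1r (0.090 to 1.75) lie above 0, and those of the other 8 genes cross it.

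When DD + rDKK3 was compared with WT, which shares its libraries with the comparisons above, none of the 10 members passed the test, where 0.0475% of genes (7) were called. All 10 had higher means, by a median log2 fold change of 0.56 against 0.0171 over all genes. Cd68 was at 0.41 (SE 0.144, unadjusted p 0.0219, adjusted p 0.322 by edgeR) and Csf1r at 0.92 (SE 0.357, unadjusted p 0.034, adjusted p 0.322). These were the only members with an unadjusted p under 0.05, a level reached by 1082 genes that were higher and 1179 that were lower. They were also the 2 members whose libraries lay above both WT libraries, as for 27.9% of all genes. Adgre1 differed by 1.01, Mrc1 by 1.07 and Lyz2 by 0.98, with adjusted p from 0.549 to 0.658, and the C1q genes by 0.12 to 0.20. Without DD + rDKK3 2 the 8 members other than Cd68 and Csf1r were lower than in WT, C1qa at -1.31.

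The summed level of the members gave 1 value per library. It came to 100.2 ± 56.16 CPM for WT, 171.7 ± 140.0 for DD and 149.6 ± 85.13 for DD + rDKK3 (± SD over n = 2 libraries). The ratio of means was 1.71 for DD to WT (exact two-sided permutation p 0.667), 0.871 for DD + rDKK3 to DD (exact p 1) and 1.49 for DD + rDKK3 to WT (exact p 0.667). With 2 libraries against 2, the smallest p such a test allows is 0.33.

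Genes that work with the members were then examined in lists taken from general knowledge, and 0 genes of any list were called in any of the 3 comparisons by edgeR. In a list of 14 Fc, TREM, C-type lectin and related receptors, 6 were tested. Most signal through such adapters, whereas Fcgr2b is an inhibitory receptor with a motif of its own and Clec7a (0 to 2 counts) also has its own. The list summed to 20.9 and 4.64 CPM in the WT pair, 4.02 and 30.5 in the DD pair and 5.92 and 21.0 with rDKK3. Fcgr3, an activating receptor for IgG, had the highest level in 4 of the 6 libraries, with 11.2 and 1.48 CPM in the WT pair, 1.28 and 15.8 in the DD pair and 2.32 and 10.8 with rDKK3. Clec4n (dectin-2) had as many counts as Fcgr3 in DD 1 (27) and 1 more in WT 2 (22 against 21), and did not differ in the same way within WT, at 1.965 and 1.545 CPM. The lipid-sensing receptor Trem2 was lower, with 4 to 7 counts in 4 libraries and 33 and 39 in DD 2 and DD + rDKK3 2. Fcgr1, the high-affinity IgG receptor, had 16 and 0 counts in the WT pair, 2 and 9 in the DD pair and 4 and 16 with rDKK3, and Trem1 had 0 to 3. Fcgr2b stood at 3.14 and 0.913 CPM in the WT pair, 0.662 and 6.58 in the DD pair and 1.58 and 3.60 with rDKK3. Of the receptors named here, Fcgr3, Fcgr1 and Fcgr2b thus had the adapters' pattern of high libraries, while Trem2 had 7 counts in WT 1 and 4 in WT 2. Downstream, Syk, the kinase that ITAM motifs recruit, stood at 1.77 and 0.562 CPM in the WT pair, 0.899 and 1.76 in the DD pair and 0.951 and 2.21 with rDKK3. Plcg2 ranged from 11.2 to 19.9 CPM and was lower in DD 2 than in DD 1, Vav1 ranged from 2.18 to 4.52 CPM, and Btk had 0 to 5 counts. Over the 7 tested genes of that list the median log2 difference was 0.22 in DD against WT, -0.064 in DD + rDKK3 against DD and 0.085 in DD + rDKK3 against WT.

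Among 16 partners of C1q in the complement system, 13 were tested. The C1 proteases C1ra and C1s1, which bind C1q, were high in DD 2 and DD + rDKK3 2 alone: C1ra stood at 2.7 and 2.47 CPM there and at 0.884 to 1.21 in the other 4 libraries, and C1s1 at 4.29 and 3.76 against 0.426 to 0.983. C1rb and C1s2, recent duplicates of these genes, had 0 counts in all 6 libraries. In WT 1, therefore, C1q transcripts were high without a higher level of either protease. The 4 complement genes with all 3 ratios at 3 or more were the receptors C3ar1, C5ar1, Vsig4 and Itgam, named after their values were seen. The list's median log2 difference was 0.38 in DD against WT, with 8 of 13 higher, -0.0065 in DD + rDKK3 against DD and 0.35 in DD + rDKK3 against WT.

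On the axis of Csf1r, the ligand Csf1 stood at 16.4 and 15.8 CPM in the WT pair, 21.9 and 60.7 in the DD pair and 26.3 and 63.8 with rDKK3. It was thus lowest in the WT libraries and highest in DD 2 and DD + rDKK3 2, with log2 fold changes of 1.36 (SE 0.531) in DD against WT and 1.49 (SE 0.532) in DD + rDKK3 against WT, neither of which passed the test. The other ligand of the receptor, Il34, stood at 7.76 and 7.94 CPM in the WT pair, 7.57 and 6.58 in the DD pair and 5.70 and 4.63 with rDKK3. Csf2, the gene of GM-CSF, had 1 count in WT 1 and 0 in the other 5 libraries, and its receptor chain Csf2ra ranged from 2.04 to 3.54 CPM.

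Among transcription factors of the lineage, Spi1 stood at 1.28 and 0.492 CPM in the WT pair, 0.379 and 2.12 in the DD pair and 0.211 and 1.77 with rDKK3, from 4 to 36 counts. Its higher library in each group was that of the C1q genes, as it was for Maf, with 4.62 and 2.25, 2.13 and 7.99, and 2.85 and 8.07 CPM. Irf8, a factor of monocytes and dendritic cells, ranged from 0.947 to 1.82 CPM. The 9 tested factors had a median log2 fold change of 0.041 in DD against WT, -0.025 in DD + rDKK3 against DD and 0.056 in DD + rDKK3 against WT.

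Scavenger receptors and lysosomal genes held both genes with the pattern of the members and genes without it. The scavenger receptors Cd163 (9.73 and 0.843 CPM in the WT pair, 1.09 and 10.9 in the DD pair, 2.32 and 8.23 with rDKK3) and Msr1 (2.36 and 0.562, 0.757 and 6.41, 0.951 and 5.70) had the members' pattern. Cd36, a fatty acid transporter that endothelial cells and adipocytes also make, ranged from 37.7 to 111.5 CPM and was highest in WT 2, and Marco had 1 to 5 counts. The protease cathepsin S, Ctss, stood at 12.5 and 1.90 CPM in the WT pair, 2.51 and 15.0 in the DD pair and 4.81 and 18.4 with rDKK3. Cathepsins B, D and L (Ctsb, Ctsd and Ctsl), which most cells make, ranged from 802.9 to 1028, from 463.7 to 561.1 and from 2412 to 4323 CPM. Of 11 scavenger receptors and lectins tested, 7 were higher in DD than in WT (median log2 fold change 0.21), and of 15 lysosomal genes 8 were higher (median 0.086). In DD + rDKK3 against DD the counts were 4 of 11 and 6 of 15.

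Other markers of macrophages and monocytes gave a mixed picture. Ms4a7 (2.75 and 0.632 CPM in the WT pair, 0.568 and 5.76 in the DD pair, 1.37 and 2.90 with rDKK3) and Ms4a6c (5.6 and 0.913, 0.615 and 9.17, 1.43 and 6.35) had the members' pattern, while Cx3cr1 had 0 or 1 count and Aif1 0 to 8. The defining markers of classical monocytes were at or near 0, with 0 counts of Ccr2 in all 6 libraries and 0 to 4 of Ly6c2. Plac8 (4.03 and 0.632 CPM in the WT pair, 0.710 and 7.17 in the DD pair, 0.898 and 2.47 with rDKK3) and Chil3 (0.351 to 2.7) were present. The list of monocyte markers summed to 382.7 and 133.8 CPM in the WT pair, 160.4 and 578.6 in the DD pair and 216.1 and 482.1 with rDKK3, and this sum was made up largely of Ly6c1 and Fn1, which endothelial cells and fibroblasts also express. Median log2 fold changes in DD against WT were 0.23 over 12 tested macrophage markers and 0.57 over 8 tested monocyte markers, and in DD + rDKK3 against DD they were -0.28 and -0.15.

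Genes of antigen presentation, among them the MHC class II genes that many macrophages express, had means in the other direction. All 6 tested genes of the antigen presentation list had lower means in DD than in WT (median log2 fold change -0.77), and the same 6 had lower means in DD + rDKK3 than in WT (median -0.71). The class II chain H2-Ab1 stood at 19.8 and 5.76 CPM in the WT pair, 3.27 and 6.17 in the DD pair and 3.96 and 2.63 with rDKK3. Cd74, the invariant chain, stood at 3.54 and 3.58 CPM in the WT pair, 1.70 and 2.29 in the DD pair and 1.43 and 1.94 with rDKK3, so its WT libraries were the 2 highest. H2-Eb1 had 4 to 14 counts, and H2-Aa 17 in WT 1 and 0 to 7 in the other libraries. Among 15 genes of macrophage activation, Il1b had 1 count in all, Nos2 0 to 4, Tnf 7 to 25 and Il6 7 to 24. Arg1 was the 1 gene of that list with all 3 library ratios at 3 or more. It stood at 13.4 and 1.41 CPM in the WT pair, 0.757 and 8.58 in the DD pair and 1.27 and 4.73 with rDKK3. The median of the 9 tested was -0.13 in DD against WT and -0.58 in DD + rDKK3 against DD, with 9 of 9 lower in the latter. Of 9 tested genes of lipid-associated macrophages 7 were higher in DD than in WT (median 0.51). The best measured were Spp1 (627.9 to 1398 CPM), also made by duct cells, and Plin2 (610.8 to 1148 CPM), a lipid droplet protein of many cells, while Apoe stood at 35.5 and 26.1 CPM in the WT pair, 23.9 and 92.5 in the DD pair and 30.1 and 70.1 with rDKK3. Lpl (98.04 to 197.3 CPM) and Fabp4 (65.94 to 184.5) belong to fat cells too.

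The genes whose profile over the 6 libraries came closest to the members' mean profile were ranked by the root mean square difference of centred log2 CPM, over 13279 genes with a median difference of 1.11. The 10 closest were B3galnt1 (0.157), Tlr7 (0.164), Laptm5 (0.183), Pirb (0.196), Nckap1l (0.215), Ctss (0.255), Mpeg1 (0.255), Alox5ap (0.265), Pdlim4 (0.268) and Cd84 (0.273). Among them, Laptm5 is a lysosomal protein of blood cells, Nckap1l (HEM1) the leukocyte subunit of an actin regulatory complex and Tlr7 a receptor for single-stranded RNA. Mpeg1 is the pore-forming perforin-2 of phagocytes and Alox5ap a protein needed for leukotriene synthesis. Which cells made B3galnt1, the closest of the 10, or Pirb, Pdlim4 and Cd84 was not examined. Mpeg1, the most abundant of the 10, stood at 16.3 and 5.13 CPM in the WT pair, 7.0 and 22.05 in the DD pair and 8.61 and 24.5 with rDKK3. Each member was also set against the mean profile of the other 9, which leaves its own values out. Ranked among 13280 genes (the member and the genes that are no members), Fcer1g came 2nd, Tyrobp 7th, Adgre1 9th and Lyz2 68th, the C1q genes and Mrc1 came between 204 and 340, and Csf1r (677) and Cd68 (3363) came last. The likeness rests on 6 libraries.

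Markers of other cell types were set beside the members. The general leukocyte gene Ptprc (CD45) had 11 and 3 counts in the WT pair, 2 and 18 in the DD pair and 12 and 25 with rDKK3. Cd53, also of leukocytes, stood at 5.99 and 0.281 CPM in the WT pair, 1.04 and 4.59 in the DD pair and 1.06 and 2.96 with rDKK3, and Coro1a and Cd52 had the same high libraries. The last 2 were the only ones of 13 tested leukocyte genes with all 3 library ratios at 3 or more. Better measured genes of that list were mixed. Itgb2 (6.29 to 9.68 CPM) and Lcp1 (15.95 to 22) were lower in WT 1 than in WT 2 and near equal in the DD pair. Cytip ranged from 2.89 to 5.34 CPM, and Ucp2 stood at 658.6 CPM in DD 1 against 537.9 in DD 2. Tmsb4x, however, had the members' high libraries. It stood at 490.1 and 282.4 CPM in the WT pair, 205.2 and 447.9 in the DD pair and 217.5 and 304.6 with rDKK3. So did Arhgdib, at 4.62 and 2.18, 1.56 and 6.64, and 2.75 and 4.89 CPM. Lymphocyte genes were near 0: the summed level of 9 NK cell genes was 0 to 0.108 CPM, that of 9 T cell genes 0.852 to 2.26, and that of 8 B cell genes 0 to 5.6, the last of these in WT 1 and chiefly from 50 counts of Jchain (named after its values were seen), with Cd79a and Cd79b at 0 to 2 counts and Ms4a1 at 0. Of the neutrophil markers S100a8 had 1 to 9 counts, S100a9 0 to 3, Ly6g 0 or 1 and Mpo 0 to 2, while the sum of the list (5.49 to 35.6 CPM) came chiefly from 56 to 349 counts of Mmp8, a collagenase named after its values were seen. The mast cell genes Mcpt4, Tpsb2 and Cma1 were at 0 in every library, with Cpa3 at 0 to 8 counts. Flt3, Xcr1 and Clec9a, which mark dendritic cells, had 0 to 4 counts, and Zbtb46, also an endothelial gene, 66 to 133.

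Fibroblast and stellate cell genes moved with the members in part. The list summed to 150.5 and 61.53 CPM in the WT pair, 90.63 and 931.6 in the DD pair and 193.8 and 1031 with rDKK3, so the same library of each group was the higher one. The type I collagen chain Col1a1 stood at 31.9 and 10.5 CPM in the WT pair, 15.9 and 252.1 in the DD pair and 49.8 and 304.6 with rDKK3, and Pdgfra, the receptor that marks fibroblasts, at 4.42 and 0.843, 2.56 and 19.9, and 5.28 and 19.6. Within WT, other genes of the list, named after their values were seen, went the other way: Pdgfrb (3.34 and 5.48 CPM), Thy1 (0.786 and 0.843) and Acta2 (0.295 and 0.843). Postn, also named so, was near equal there (2.85 and 2.81). All of these were higher in DD 2 and DD + rDKK3 2 than in the other library of the group. In WT 1 the C1q genes were near their level in DD 2 and DD + rDKK3 2 (C1qa 19.6 against 22.8 and 18.3 CPM), whereas Col1a1 in WT 1 was far below it. All 14 tested genes of the list had higher means in DD than in WT (median log2 fold change 2.18) and in DD + rDKK3 than in WT (median 2.34), with 0 called. The part of these cells in the members' values was not tested. Mesothelial genes were low in Wt1 (0 to 32 counts) and reached 32.6 CPM in DD 2 for Msln, against 7.76 to 14.2 CPM in the other 5 libraries.

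Summed over their lists, endothelial, acinar and ductal genes did not share the members' pattern, although single genes could. The endothelial list summed to 142.9 and 230.0 CPM in the WT pair, 169.7 and 234.3 in the DD pair and 180.3 and 207.2 with rDKK3, and WT 1, high in the members, was its lowest library. Pecam1 (CD31) stood at 16.3 and 28.4 CPM in WT, and Cdh5, Kdr and Tek were likewise lower in WT 1 than in WT 2. Acinar enzyme genes summed to 202300 and 155000 CPM in the WT pair, 129800 and 115700 in the DD pair and 154700 and 126500 with rDKK3. The elastase gene Cela1 alone stood at 17250 and 8426 CPM in WT, against 5114 to 7570 in the other 4 libraries. All 14 tested enzyme genes had lower means in DD than in WT (median log2 fold change -0.73, 0 called). The 10 members had the reverse sign, which for 8 of them rested on DD 2, without which they too were lower in DD. The ductal list stood at 6248 and 4860 CPM in the WT pair, 5406 and 5556 in the DD pair and 4638 and 4364 with rDKK3. Krt19 stood at 910.4 and 519.4, 694.7 and 799.6, and 578 and 592.5 CPM, so its higher library in each group was that of the members. The same held for Krt7 (88.8 and 81.6, 75.3 and 88.8, 56.7 and 59.4), whereas Krt18 and Krt8 were lower in DD 2 than in DD 1.

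**Figure D4:**
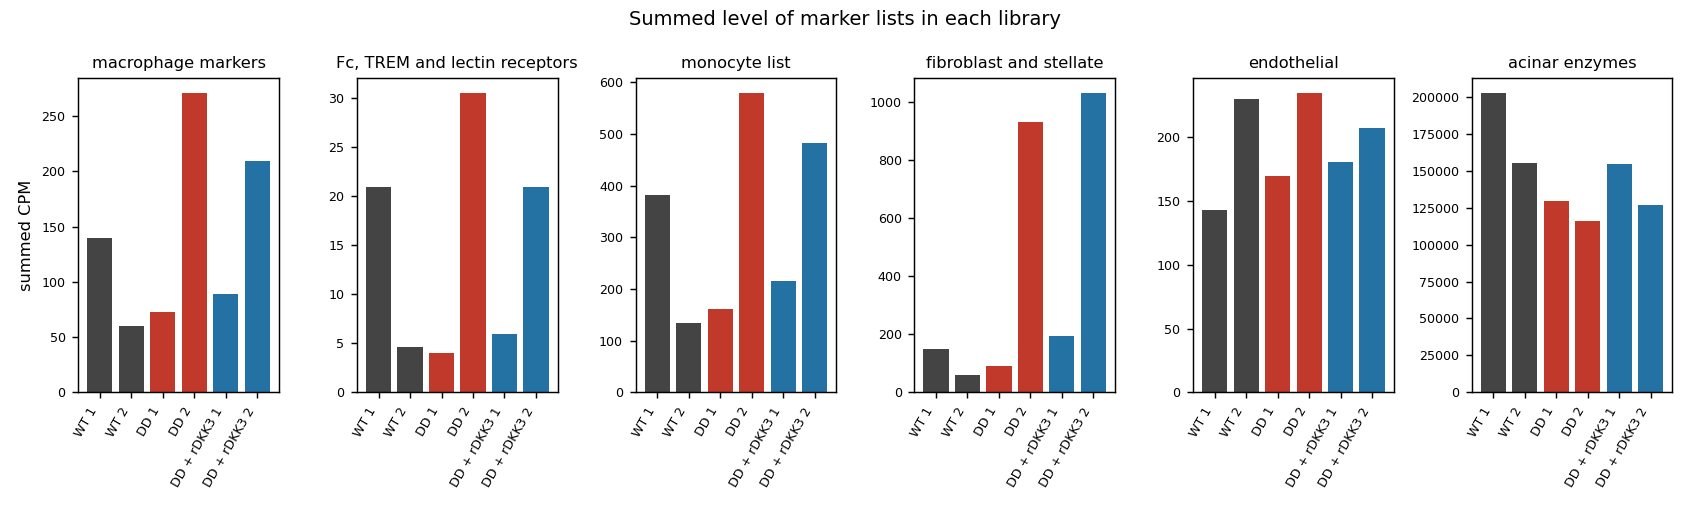
Summed CPM of 6 gene lists in the 6 libraries, with WT in grey, DD in red and DD + rDKK3 in blue, each panel with its own linear axis from 0. The macrophage markers, the Fc, TREM and lectin receptors, the monocyte list and the fibroblast list are higher in WT 1, DD 2 and DD + rDKK3 2 than in the other library of the group, whereas WT 1 is the lowest library for endothelial genes (142.9 CPM) and the highest for acinar enzymes (202300 CPM).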

How the data were processed

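Bulk RNA of 6 acinar cultures was sequenced as strand-specific paired-end reads. The deposited table holds raw counts per gene, which the authors made by aligning reads with STAR 2.7.9a to GRCm39 with the basic GENCODE M32 annotation, counting strand-specifically over exons in union mode without secondary alignments, and summing exons per gene. Reads shared by paralogues can be lost or misplaced by such counting. The authors tested with DESeq2 1.38.0. Of 57045 rows, 92 for spike-in RNAs, all at 0, were left out, and 0 sample columns were unmatched. Libraries were grouped by their labels. The replicates of a group were not 1 library deposited again (chi-square per degree of freedom 22.96 to 65.68).

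From the counts, edgeR 4.0.16 (R 4.3.3) was run with filterByExpr (minimum count 10, minimum total 15), TMM scaling and the quasi-likelihood F-test (two-sided) on all 6 libraries in 3 groups, with Benjamini-Hochberg adjustment over 14738 genes and calls at an adjusted p under 0.05. The SE is the absolute log2 fold change divided by the square root of F, and log2 CPM used a prior count of 2. The common biological coefficient of variation was 0.2148, with 3 residual degrees of freedom. Intervals of the counts of a gene are exact 95% Poisson intervals. Those of the members' share and of library ratios are exact binomial intervals, and both kinds cover counting error only. Sequences and lengths came from a GRCm39 genome with GENCODE M39, read with Biopython 1.88. Alternatives were other scalings, no filter, DESeq2 1.42.0, limma 3.58.1 (voom), fits with a replicate block, fits of 2 groups and each library left out.

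The 10 members and the 24 other lists were chosen with earlier results of these data known. Named genes are the members, the first 4 genes of each list, the 10 genes nearest in profile, and genes said to be named after their values were seen. Ly6c1, Fn1, Ephb2, Epha8, Zbtb40, Lyz1, Hmgxb3, Xist, Clec4n, Clec7a, Fcgr2b, Itgb2, Lcp1, Cytip, Ucp2, Tmsb4x, Arhgdib, Arg1 and Plin2 were also named after their values were seen. Some items are not reported here.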

Additional observations from a re-analysis of the deposited data

How the results depend on the processing

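Across all alternatives other than the fit without a filter on low counts, 0 members passed the test, but DESeq2 gave no adjusted p to 8 of the 10 in DD + rDKK3 against WT (all but Cd68 and Lyz2). Without the filter Lyz2 and Mrc1 (2 members) passed it in DD against WT (adjusted p 1.35e-11 and 0.000738) and the same 2 in DD + rDKK3 against WT (2.34e-05 and 0.0228), in a fit that called 528, 73 and 788 genes in the 3 comparisons (DD against WT, DD + rDKK3 against DD, DD + rDKK3 against WT), against 6, 0 and 7. With 26506 genes in place of 14738, the prior degrees of freedom that edgeR estimated went from 4.634 to infinite, so that a gene's own spread between replicates no longer entered its test: the quasi-likelihood dispersion of Lyz2 was 0.666 in place of 13.8 and that of Mrc1 0.586 in place of 8.33. These calls thus do not take the replicate spread of the 2 genes into account. DESeq2 called 80, 2 and 61 genes, and limma-voom 3 in the last comparison. With limma-voom 5 members changed sign in DD + rDKK3 against DD, the log2 fold changes being C1qa 0.44, C1qb 0.28, C1qc 0.57, Mrc1 0.031 and Tyrobp 0.32.

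The titles give DD and DD + rDKK3 libraries a shared name (DD1 or DD2). Their age labels differ (12 and 14 weeks, 13 and 15 weeks) and no shared animal is named. Whether they came from shared animals cannot be told. The main tests took the replicate numbers as numbers only and left out any pairing. The library ratios of a gene in DD and in DD + rDKK3 may thus not be separate observations. Deviations of same-numbered libraries correlated across genes at 0.65 between DD and DD + rDKK3, at -0.39 between DD and WT and at -0.25 between DD + rDKK3 and WT. With the replicate number as a block over all libraries, signs changed in DD against WT (C1qa -0.58, C1qb -0.41, C1qc -0.55 and Tyrobp -0.24), in DD + rDKK3 against DD (Tyrobp 0.052) and in DD + rDKK3 against WT (C1qa -0.58, C1qb -0.65, C1qc -0.55 and Tyrobp -0.19). With the block within the Dkk3-null libraries alone, 20 and 15 genes were called against WT, and the reversed values were Adgre1 -0.40, Lyz2 -0.31, C1qa -1.85, C1qb -1.80, C1qc -1.88, Mrc1 -0.43, Tyrobp -1.36 and Fcer1g -0.96 in DD against WT, C1qa 0.22, C1qc 0.28 and Tyrobp 0.14 in DD + rDKK3 against DD, and Adgre1 -0.21, Lyz2 -0.41, C1qa -1.63, C1qb -1.81, C1qc -1.60, Mrc1 -0.56, Tyrobp -1.22 and Fcer1g -0.76 in DD + rDKK3 against WT.

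Leaving out 1 library, or DD 2 and DD + rDKK3 2 together (added after seeing the data), left a group with 1 library, assumed to vary like the others. The ranges of log2 fold changes that changed sign were, in DD against WT, Adgre1 -0.39 to 1.86, Lyz2 -0.64 to 2.27, C1qa -2.32 to 2.95, C1qb -2.34 to 3.38, C1qc -2.52 to 2.98, Mrc1 -0.71 to 4.26, Tyrobp -1.64 to 2.09 and Fcer1g -1.21 to 1.83. In DD + rDKK3 against DD they were Adgre1 -1.08 to 1.39, Csf1r -0.21 to 0.65, Lyz2 -1.58 to 1.61, C1qa -1.58 to 2.43, C1qb -2.06 to 2.53, C1qc -1.51 to 2.64, Mrc1 -1.78 to 1.77, Tyrobp -1.40 to 1.97 and Fcer1g -1.24 to 1.92. In DD + rDKK3 against WT they were Adgre1 -0.29 to 2.10, Lyz2 -0.14 to 1.60, C1qa -1.31 to 2.81, C1qb -1.44 to 2.97, C1qc -1.19 to 2.80, Mrc1 -0.38 to 3.94, Tyrobp -1.03 to 2.07 and Fcer1g -0.59 to 1.91. The median over members ran from -0.96 to 2.00 in DD against WT and from -1.46 to 1.85 in DD + rDKK3 against DD, and the genes called from 2 to 14 in DD against WT and from 2 to 10 in DD + rDKK3 against WT. Cd68 and Csf1r kept their sign in DD against WT and in DD + rDKK3 against WT under every alternative listed here. Scaling by DESeq2 size factors or library size alone, and fits of the 2 groups compared, changed no sign of a member. Depth limits Adgre1, Fcer1g, Tyrobp and Mrc1 most, with 6 to 14 counts each in WT 2.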
